A study of Homo sapiens with 49 samples.

Results

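The regions described here are 846 distal sites of the Ishikawa genome at which the AP-1 subunit JUN (c-JUN) and the histone demethylase LSD1 both had a ChIP-seq peak after 17beta-estradiol (E2) and neither had one after the vehicle DMSO. They were chosen from the deposited peak lists themselves. A JUN E2 peak was kept if it shared at least 1 bp with an LSD1 E2 peak, with no JUN or LSD1 DMSO peak and with no H3K4me3 peak of either treatment, on chromosomes 1 to 22 and X. Of 18310 JUN E2 peaks, 10281 overlapped LSD1 E2 peaks, 8039 of those had no JUN DMSO peak, 4758 of those had no LSD1 DMSO peak, and 846 of those lay outside H3K4me3, which is 4.62% of the JUN E2 list. They overlapped 848 LSD1 E2 peaks. Their presence under E2, their absence under DMSO and their distance from H3K4me3 are therefore the rule and not a finding.

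Ishikawa is a line of human endometrial adenocarcinoma, and T-47D, the other line of the series, is a breast carcinoma line. In the ChIP of proteins, cells of both lines received 10 nM E2 or DMSO for 1 h, and for the histone marks 8 h. This followed growth in hormone-depleted medium, which both treatments share. SIN3A was mapped without E2 or DMSO, in stripped and in full media. The Ishikawa groups have 1 library each, so no difference below has a replicate check and no test was made. Intervals are exact (Clopper-Pearson) 95% binomial intervals and cover counting error over regions alone. As a check of the line labels, 13 of 16 listed endometrial transcription factor genes had an H3K4me3 DMSO peak within 1 kb of a start site in Ishikawa and 11 of 16 in T-47D. PAX8, SOX17, EMX2 and HOXA10 had one in Ishikawa alone, and GATA3, a breast luminal factor, in T-47D alone. PAX2 and FOXA2, of the same endometrial list, also had one in T-47D alone.

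JUN is a subunit of AP-1, a dimer of leucine zipper proteins that binds the palindrome-like heptamer TGACTCA. The estrogen receptor binds the estrogen response element, an inverted repeat of the arm GGTCA with 3 bases between the arms, and can also reach DNA through other bound factors, AP-1 among them. LSD1 (KDM1A) removes methyl groups from H3K4me1 and H3K4me2 and works in corepressor complexes, although it also occurs at active enhancers. No estrogen receptor list was used here. H3K4me1 marks enhancers, and RARA is a retinoic acid receptor that binds DNA with RXR.

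Both motifs can be read in the sequences under the JUN summits. The windows below are GRCh37, the build of the lists, plus strand, 100 bp either side of the JUN E2 summit, with matches to the AP-1 heptamer or to the element with up to 1 mismatch in capitals. The first set holds the strongest members, ranked by the lower of the JUN and LSD1 fold enrichments, which is the ratio of ChIP pileup to local background at the summit.
KAZN intron, strongest member, chr1:15352078-15352278: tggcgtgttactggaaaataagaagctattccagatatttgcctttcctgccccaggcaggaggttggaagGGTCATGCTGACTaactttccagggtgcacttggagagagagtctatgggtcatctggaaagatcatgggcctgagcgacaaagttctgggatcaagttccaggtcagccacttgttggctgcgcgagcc
Near GPR37L1, ranked next, chr1:202082071-202082271: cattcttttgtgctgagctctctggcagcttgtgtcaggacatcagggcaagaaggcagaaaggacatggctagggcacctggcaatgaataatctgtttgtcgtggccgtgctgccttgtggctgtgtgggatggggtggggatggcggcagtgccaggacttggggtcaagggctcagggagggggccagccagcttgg
KAZN intron, ranked after these, chr1:15375190-15375390: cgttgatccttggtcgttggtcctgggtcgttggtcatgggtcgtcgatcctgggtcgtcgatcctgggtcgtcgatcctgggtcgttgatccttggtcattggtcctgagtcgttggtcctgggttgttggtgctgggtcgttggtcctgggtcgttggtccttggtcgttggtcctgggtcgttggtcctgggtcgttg
The next set holds the 3 strongest members with an exact element.
Near OXT, chr20:3049725-3049925: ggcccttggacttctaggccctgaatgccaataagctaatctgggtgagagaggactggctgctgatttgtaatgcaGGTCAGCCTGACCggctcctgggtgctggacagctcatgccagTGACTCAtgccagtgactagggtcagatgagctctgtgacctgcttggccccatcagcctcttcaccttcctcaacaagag
Near FHL2, chr2:106139241-106139441: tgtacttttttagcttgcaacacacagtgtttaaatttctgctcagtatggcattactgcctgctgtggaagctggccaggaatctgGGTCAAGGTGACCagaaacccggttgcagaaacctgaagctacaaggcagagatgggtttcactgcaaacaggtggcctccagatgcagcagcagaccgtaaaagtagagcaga
MGAT3 intron, chr22:39878906-39879106: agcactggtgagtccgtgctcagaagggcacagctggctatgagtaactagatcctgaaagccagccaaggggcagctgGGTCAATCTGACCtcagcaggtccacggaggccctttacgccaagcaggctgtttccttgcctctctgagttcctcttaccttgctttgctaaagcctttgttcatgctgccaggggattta
The last set holds a further member with both motifs, beside the member with the highest JUN fold enrichment. The latter held neither the heptamer nor the element, which is what no motif means in its label.
Near SPN, both motifs, chr16:29616229-29616429: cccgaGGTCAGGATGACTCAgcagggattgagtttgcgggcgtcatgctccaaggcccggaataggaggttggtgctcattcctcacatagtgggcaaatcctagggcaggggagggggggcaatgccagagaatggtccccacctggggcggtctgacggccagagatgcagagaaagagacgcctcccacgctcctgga
Near PARP11, highest JUN enrichment and no motif, chr12:4120869-4121069: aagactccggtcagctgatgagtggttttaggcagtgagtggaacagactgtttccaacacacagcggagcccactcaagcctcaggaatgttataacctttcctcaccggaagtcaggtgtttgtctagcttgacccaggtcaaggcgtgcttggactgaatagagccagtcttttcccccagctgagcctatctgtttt
Near OXT the element lay 17 bp before the summit and the heptamer 23 bp after it. Near SPN the element and the heptamer overlapped, with centres 89 and 84 bp before the summit. In the other KAZN window 89.3% of bases equalled the base 14 bp before them, so it is a tandem repeat, whereas the highest such share in the remaining named windows was 39.1%.

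The members were peaks of moderate strength. Their JUN fold enrichment ran from 3.36 to 57.2 with a median of 11.02, against a median of 9.59 over all JUN E2 peaks. LSD1 fold enrichment ran from 3.85 to 33.4 with a median of 10.5. The median JUN peak was 319 bp wide. The rule requires the JUN and LSD1 peaks to overlap, and their summits were a median of 44 bp apart (51 bp at sites present under both treatments and 55 bp over all JUN E2 peaks with LSD1), within 50 bp in 462 members (54.6%) and within 100 bp in 689 (81.4%). At the edge of the rule, the smallest JUN and LSD1 overlap among members was 12 bp, and 7 members overlapped by under 50 bp. The nearest peak left out for want of LSD1 lay 2 bp from an LSD1 peak. Some members lay close to what excluded others: 46 had a JUN or LSD1 DMSO peak within 1 kb and 137 an H3K4me3 peak within 1 kb.

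The strongest member, in an intron of KAZN (a gene for a protein of epithelial cell junctions), had a JUN fold enrichment of 34.2 and an LSD1 fold enrichment of 33.4 at chr1:15351769-15352755. It held an element with 1 mismatch and had H3K4me1 peaks under both treatments and a RARA E2 peak. A further KAZN member at chr1:15374821-15375574, the tandem repeat shown above, had 35.9 and 31.6 and no H3K4me1, RARA, TAF1, SIN3A or T-47D JUN peak. The member near GPR37L1, an orphan receptor gene, at chr1:202081717-202082518 had 45.5 and 31.9. An intronic member of HEXD, which encodes a hexosaminidase, had 29.2 and 29.96 at chr17:80393975-80394586. The member near GFRA2, a receptor gene for GDNF family ligands, had 29.2 and 29.3 at chr8:21704242-21704702. None of these 5 held the AP-1 heptamer.

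Sequence carried neither motif in most members. The heptamer occurred within 100 bp of the JUN summit in 196 of 846 members (23.2%, 95% CI 20.4 to 26.2), the element with up to 1 mismatch in 57 (6.74%, 5.14 to 8.64), both in 13 and neither in 606. The heptamer was searched as TGACTCA or its reverse complement TGAGTCA. It lay in 4.20% of windows of the same length 2 kb to either side of the members (95% CI 3.29 to 5.26) and in 3.07% of all such windows of the genome, so the share at the summits was above both. Where present, it was a median of 34 bp from the summit, and within 50 bp in 143 of 196 members.

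**Figure D1:**
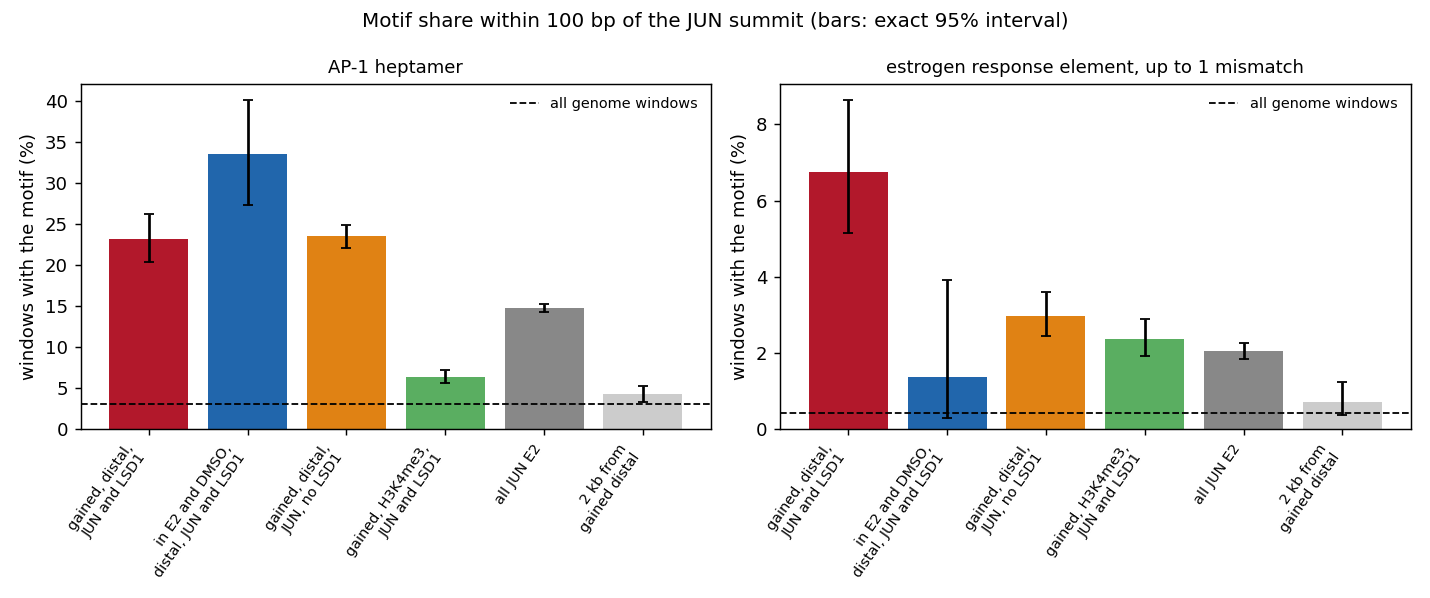
Share of windows (percent, vertical axis) with the AP-1 heptamer (left) or the estrogen response element with up to 1 mismatch (right) within 100 bp of the JUN summit, for the 846 gained distal JUN and LSD1 regions, 4 sets of JUN E2 peaks and windows 2 kb away. Error bars are exact 95% intervals and the dashed line is all genome windows. The 846 regions reach 23.2% and 6.74%, the latter above each other set.

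Other JUN peaks give the scale. Among 221 distal sites at which JUN and LSD1 were present under E2 and under DMSO, the heptamer share was 33.5% (95% CI 27.3 to 40.1). These sites were stronger peaks, with a median JUN fold enrichment of 24.4 against 11.02 in the members. Above 14.488, the upper quartile of the members, the heptamer share was 36.1% (29.3 to 43.3) at 194 such sites. In the 212 members above it, the heptamer share was 34.4% (28.1 to 41.2), and these intervals overlap. Among 3596 gained distal JUN peaks without an LSD1 E2 peak it was 23.5% (22.1 to 24.9), whose interval overlaps that of the members. At 3912 gained JUN and LSD1 sites with H3K4me3 it was 6.34% (5.60 to 7.15), and over all JUN E2 peaks 14.7%. LSD1 peaks that were gained, distal and without JUN, 1895 in number, held it in 5.59% (4.602 to 6.73) at their own summits, against 20.9% (18.2 to 23.8) at the LSD1 summits of the members.

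Over the whole sets, the element was where the members stood apart. Its letters were GGTCANNNTGACC, with up to 1 of the 10 fixed bases changed. The share of 6.74% compared with 0.709% 2 kb away (95% CI 0.367 to 1.24) and 0.409% of all genome windows. It was 1.36% (0.281 to 3.92) at the sites present under both treatments, 2.98% (2.44 to 3.58) at gained distal JUN peaks without LSD1 and 2.35% (1.90 to 2.87) at gained sites with H3K4me3. Gained distal LSD1 peaks without JUN held it in 0.844% (0.483 to 1.37) at their own summits, against 5.44% (4.01 to 7.19) at the LSD1 summits of the members. None of the intervals of the other sets reaches that of the members at the same kind of summit. The exact element was rare in each set, in 9 members (1.06%, 0.488 to 2.01), 0.452% of sites present under both treatments and 0.473% of gained JUN peaks without LSD1, so these shares cannot be told apart at this number. The element lay a median of 27 bp from the JUN summit, within 50 bp in 46 of 57 members. The single arm GGTCA occurred in 50.5% of members (47.05 to 53.9), 36.8% of the windows 2 kb away and 42.9% of gained distal JUN peaks without LSD1.

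**Figure D2:**
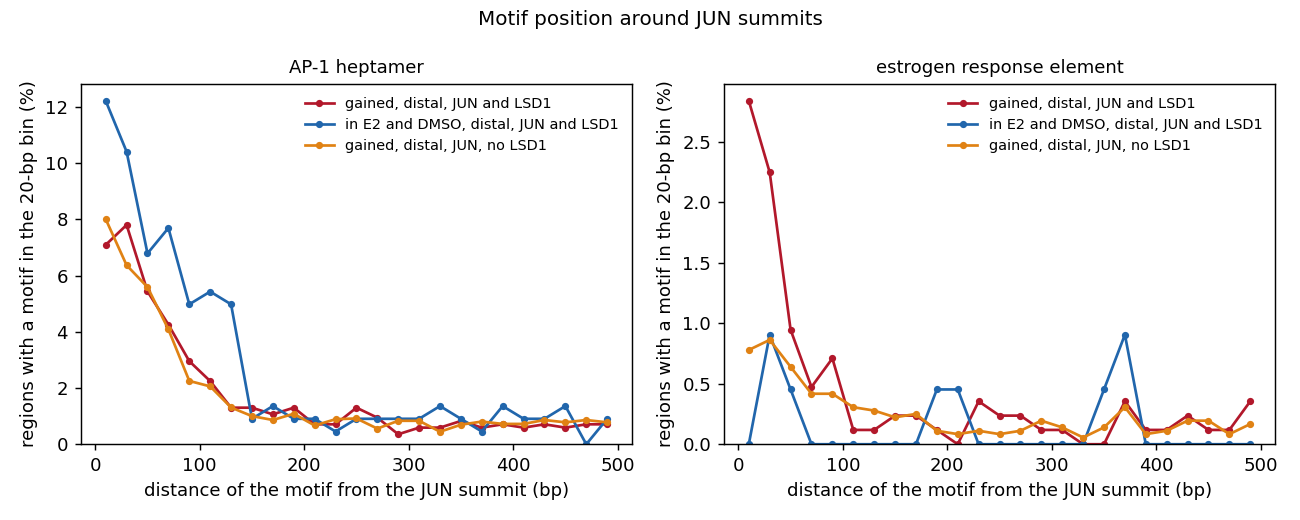
Share of regions (percent) with a motif centred in each 20-bp bin of distance from the JUN summit, out to 500 bp, for the AP-1 heptamer (left) and the element with up to 1 mismatch (right). In the 846 gained distal JUN and LSD1 regions (red) the bins within 40 bp of the summit are the highest for both motifs, with 7.09% and 7.80% for the heptamer and 2.84% and 2.25% for the element, and the median distances are 34 bp and 27 bp among the regions that hold them.

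Base composition differed between the sets. The median GC content of the windows was 57.7% in the members, 51.7% at the sites present under both treatments and 50.2% at gained distal JUN peaks without LSD1. Within windows of 55 to 60% GC, the element was present in 17 of 286 members (5.94%, 95% CI 3.50 to 9.34), 13 of 535 gained JUN peaks without LSD1 (2.43%, 1.30 to 4.12) and 0 of 36 sites present under both treatments. In windows of 60 to 65% it was present in 17 of 211 members (8.06%, 4.76 to 12.6). The gained JUN peaks without LSD1 had it in 4 of 355 there (1.13%, 0.308 to 2.86). In every other band, 55 to 60% included, the intervals of these sets overlap. Below 45% it was present in 0 of 6 members and 33 of 742 gained JUN peaks without LSD1. The heptamer share of members was 24.5% at 45 to 50% GC, 24.4% at 50 to 55%, 24.8% at 55 to 60%, 20.9% at 60 to 65% and 19.4% (11.9 to 28.9) above 65%, with 2 of 6 windows below 45%. In gained JUN peaks without LSD1 it went from 29.5% below 45% to 15.2% at 60 to 65% and 4.79% (2.21 to 8.89) above 65%, so the like shares of the whole sets were not alike at high GC.

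Motif content rose with JUN strength. In 4 bands of JUN fold enrichment that each hold 211 or 212 members, the heptamer was present in 10.8% (95% CI 7.003 to 15.8), 20.4%, 27.01% and 34.4% (28.1 to 41.2) from the weakest to the strongest. The element was present in 2.83% (1.05 to 6.06), 5.21%, 6.16% and 12.7% (8.56 to 18.0). In gained distal JUN peaks without LSD1, set in the same bands of fold enrichment, the element went from 1.37% to 6.07% (3.96 to 8.83 in the strongest band) and the heptamer from 16.1% to 33.5%. At equal JUN strength the members thus held the element more often in each band, although the intervals overlap. By LSD1 strength the heptamer share went 23.9%, 20.1%, 26.0% and 22.7% with no order. Members with the element had a median JUN fold enrichment of 14.4, against 10.9 without it, and a median LSD1 fold enrichment of 11.7 against 10.4.

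**Figure D3:**
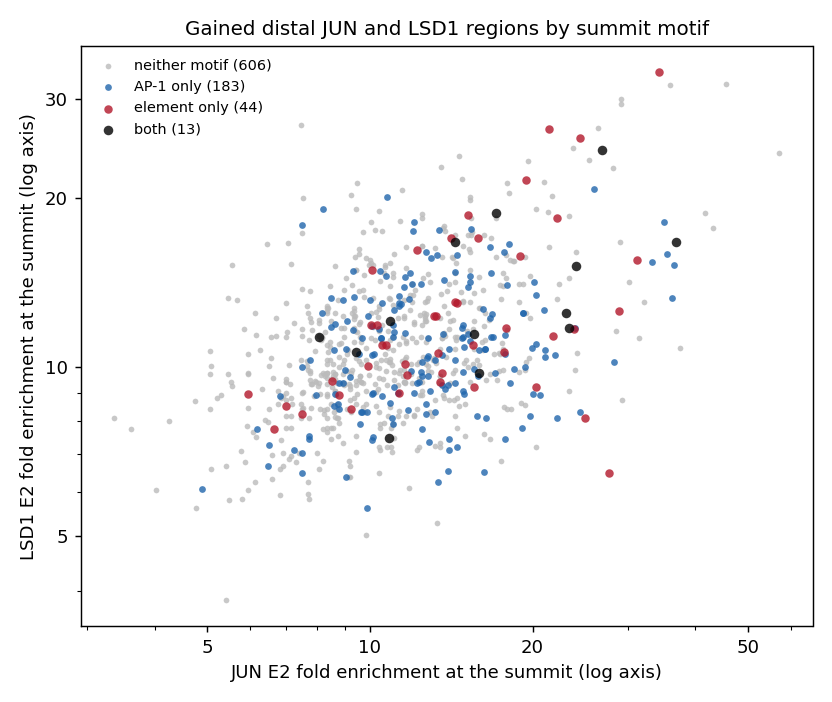
JUN E2 fold enrichment (horizontal, log axis) against LSD1 E2 fold enrichment (vertical, log axis) of the 846 regions, 1 point each, by summit motif: 606 with neither, 183 with AP-1 alone, 44 with the element alone and 13 with both. The median JUN fold enrichment is 14.4 with the element and 10.9 without it, and 12.8 with the heptamer and 10.5 without it.

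**Figure D4:**
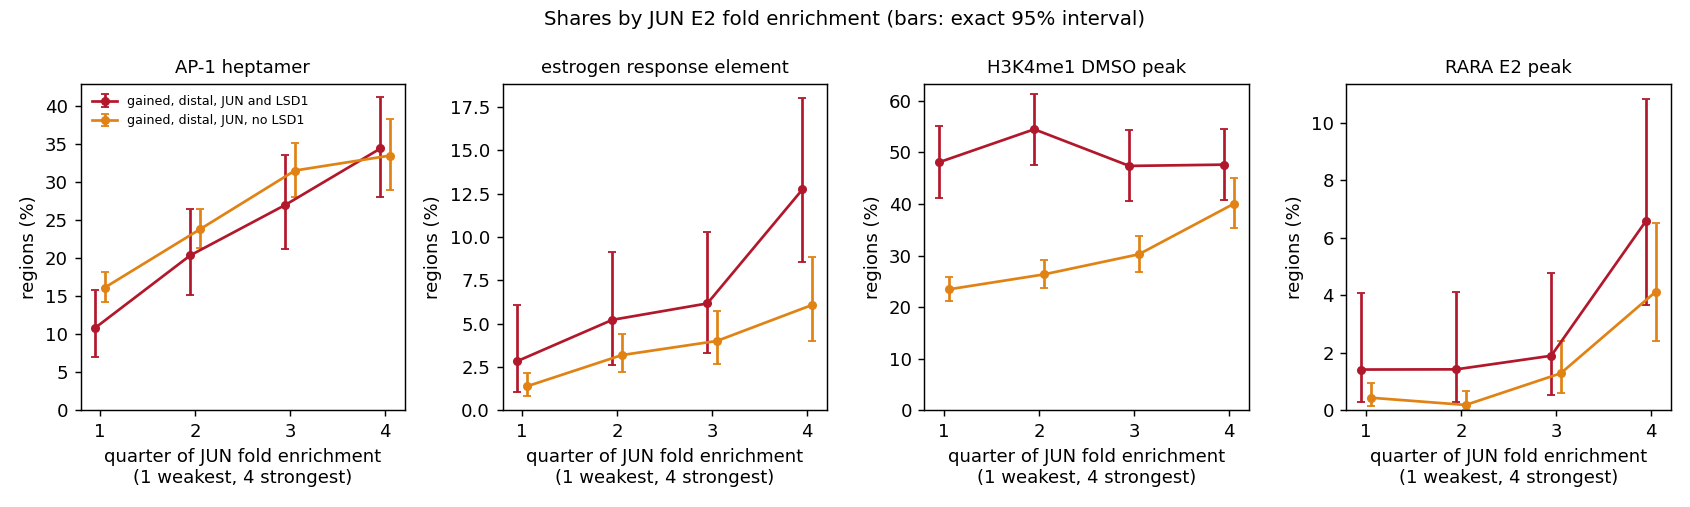
Share of regions (percent, exact 95% intervals) with the AP-1 heptamer, the element, an H3K4me1 DMSO peak and a RARA E2 peak in 4 bands of JUN fold enrichment, for the 846 regions (red) and gained distal JUN peaks without LSD1 (orange). The motif shares climb from band 1 to band 4, to 34.4% and 12.7% in the 846 regions, while H3K4me1 stays between 47.4% and 54.5% there. In gained distal JUN peaks without LSD1, H3K4me1 climbs from 23.4% in band 1 to 40.05% in band 4.

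The member near OXT, the oxytocin gene, at chr20:3049580-3050062 was the strongest with an exact element, with a JUN fold enrichment of 17.1 and an LSD1 fold enrichment of 18.8, 2441 bp from the start site. The next, 84371 bp from FHL2, a LIM-domain coactivator gene, had 28.9 and 12.6 at chr2:106139110-106139529. An intronic member of MGAT3, a glycosyltransferase gene, had 12.2 and 16.1 at chr22:39878822-39879080. A member in a non-coding exon at EVL, an actin regulator gene, had 17.9 and 11.7 at chr14:100603542-100603907. The one nearest PEMT, which encodes an enzyme of phosphatidylcholine synthesis, had 10.9 and 12.1 at chr17:17508267-17508592. None of the 9 exact-element members had an H3K4me1 DMSO peak, and the OXT member alone had an H3K4me1 E2 peak. Among the strongest members with both motifs were the one near SPN, the leukosialin gene (26.8 and 24.3 at chr16:29616138-29616523), and the one near OXT.

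Among the other motifs searched on both strands, direct repeats of AGGTCA with 2 or 5 bases between them, the spacings used by retinoic acid receptors, were found in 0 of 846 members, which allows a share of up to 0.355% by a limit of 3 counts of the total. Over all JUN E2 peaks they were found in 4 and 5 of 18310. The TEAD motif GGAATG was present in 20.3% of members and 11.1% of the windows 2 kb away, and in 22.6% of gained distal JUN peaks without LSD1. The forkhead motif TGTTTAC was present in 2.25% and 1.77%, the cAMP response element TGACGTCA in 0.709% and 0.236%, and the E-box CACGTG in 5.32% and 3.31%. All genome windows held these 4 in 10.6%, 3.13%, 0.0699% and 1.84%.

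H3K4me1 covered about as many members under DMSO as under E2. The DMSO list overlapped 418 members (49.4%, 95% CI 46.0 to 52.8) and the E2 list 393 (46.5%, 43.1 to 49.9). Of the members, 322 overlapped both, 96 (11.3%) DMSO alone, 71 (8.39%) E2 alone and 357 (42.2%) neither. Over all JUN E2 peaks, 7.8% overlapped H3K4me1 under DMSO alone and 2.75% under E2 alone, so both kinds of change were more frequent among members, which also carried the mark more often. The H3K4me1 DMSO list was longer, 28411 peaks against 22553. The DMSO share was 51.1% (44.3 to 57.9) at sites where JUN and LSD1 were present under both treatments, 27.6% (26.1 to 29.1) at gained distal JUN peaks without LSD1 and 27.2% (25.2 to 29.3) at gained distal LSD1 peaks without JUN. By overlap of 1 bp and as whole sets, it was thus close to that of sites occupied under DMSO as well and above that of sites where either protein was gained alone. At gained distal JUN peaks without LSD1 it rose with JUN strength, from 23.4% in the weakest band to 40.05% in the strongest. Members of the strongest band had 47.6%, and the intervals there overlap (40.8 to 54.6 in members, 35.3 to 44.96 without LSD1). In each weaker band the interval of the members lay above. A DMSO peak lay within 1 kb of 546 members (64.5%), while the JUN summit itself lay inside a DMSO peak in 265 (31.3%, 28.2 to 34.6). At sites present under both treatments the summit lay inside a DMSO peak in 24.0% (18.5 to 30.2), and these intervals overlap. Overlap by 1 bp depends on width, and the JUN peaks of those sites were wider, with a median of 554 bp against 319 bp in the members. At 1 kb before and after the summit the mark was present in 7.33% and 8.87%.

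**Figure D5:**
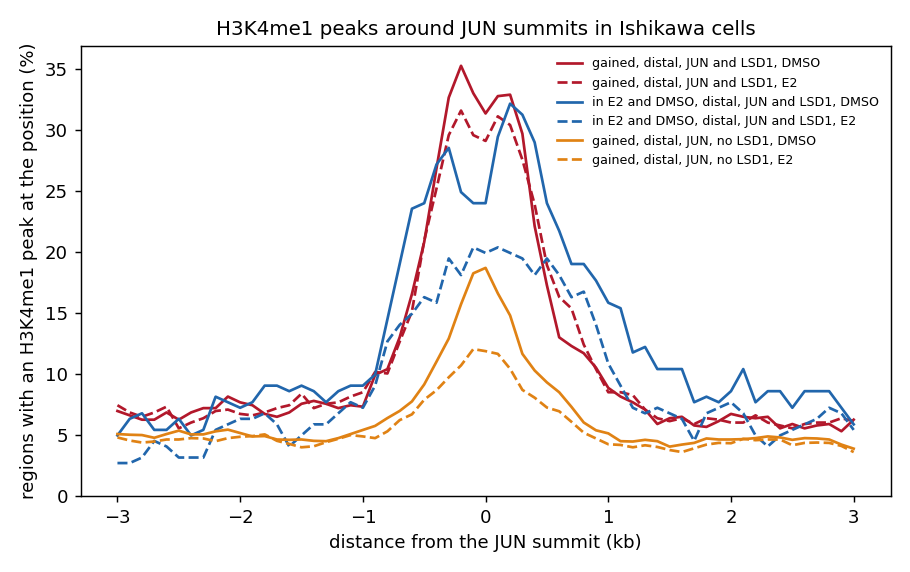
Share of regions (percent) with an H3K4me1 peak at each distance from the JUN summit, from 3 kb before to 3 kb after it, under DMSO (solid) and E2 (dashed). The 846 regions (red) have 31.3% and 29.1% at the summit and lie above gained distal JUN peaks without LSD1 (orange), at 18.7% and 11.9%. Sites present under both treatments (blue) have 24.0% and 19.9% there.

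Members with the element carried H3K4me1 less often. A DMSO peak was present at 15 of 57 members with the element (26.3%, 95% CI 15.5 to 39.7) and at 403 of 789 without it (51.1%, 47.5 to 54.6). An E2 peak was present at 35.1% (22.9 to 48.9) of members with the element and 47.3% (43.7 to 50.8) of those without it, and these intervals overlap. The heptamer made little difference, 52.0% with it and 48.6% without. At gained distal JUN peaks without LSD1 the DMSO shares were 17.8% with the element and 27.9% without. The direction was the opposite at gained sites with H3K4me3, at 56.5% and 27.1%, and over all JUN E2 peaks, at 43.9% and 36.4%.

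RARA was present at few members. The RARA E2 list overlapped 24 (2.84%, 95% CI 1.83 to 4.19) and the DMSO list 0, which allows up to 0.355% by the limit of 3 counts. The DMSO list had 136 peaks and the E2 list 2881, of which 95.6% were absent from the DMSO list, so absence under DMSO is the rule for RARA peaks everywhere. The 24 were 0.833% of the RARA E2 list, and 22 of the 483 RARA E2 peaks outside H3K4me3 (4.55%). At sites where JUN and LSD1 were present under both treatments RARA overlapped 29.9% (23.9 to 36.4), at gained sites with H3K4me3 9.07% and at gained distal JUN peaks without LSD1 0.945% (0.656 to 1.32). As whole sets, the members were therefore below the first and above the last. Within members RARA was found in 6.60% of the strongest JUN band (3.66 to 10.8) and in 1.42% to 1.90% of the others. In the same bands, gained distal JUN peaks without LSD1 had 4.13% in the strongest (2.42 to 6.52) and 0.182% to 1.28% in the others. At equal JUN strength the intervals of members and of these peaks overlap in each band.

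The 24 were chosen for an overlap of the JUN and RARA peaks, which bounds the distance between summits. The RARA summit was a median of 55 bp from the JUN summit and within 100 bp in 22 of 24. RARA fold enrichment ran from 4.88 to 22.4 with a median of 8.97, against 8.83 over all RARA E2 peaks. The 5 highest were in part at promoters without H3K4me3. The highest, 22.4, was at the start of H2AZ2, a histone variant gene, at chr7:44887727-44887944, where the JUN and LSD1 fold enrichments were 6.396 and 8.04. The next, 16.1, was the intergenic member 138355 bp from PARP11 at chr12:4120683-4121259, which had the highest JUN fold enrichment of all members, 57.2, with an LSD1 value of 24.0. The promoters of ACTL6B, a chromatin remodeller subunit gene (14.2), DBP, a circadian transcription factor gene (12.5), and TENT5B, a poly(A) polymerase gene (11.2), followed. Of members within 250 bp of any annotated start site RARA overlapped 6 of 65 (9.23%), and of the rest 18 of 781 (2.30%). The element was present in 3 of the 24 and the heptamer in 7.

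TAF1, a subunit of TFIID, was more often present under DMSO than under E2. Its DMSO list overlapped 179 members (21.2%, 95% CI 18.5 to 24.1) and its E2 list 86 (10.2%, 8.21 to 12.4). Of the members, 113 (13.4%) overlapped it under DMSO alone and 20 (2.36%) under E2 alone, against 7.65% and 1.25% of all JUN E2 peaks, of which TAF1 overlapped 58.3% under DMSO and 51.9% under E2. TAF1 was present under DMSO at 2 of 57 members with the element (3.51%, 0.428 to 12.1) and 22.4% of those without it (19.6 to 25.5). A TAF1 E2 peak lay at 4 of 57 members with the element (7.02%, 1.95 to 17.0). Without the element 10.4% had one (8.35 to 12.7), and these intervals overlap. The DMSO direction was not particular to the members. Over all JUN E2 peaks the DMSO list covered 25.1% with the element and 59.0% without, and at gained sites with H3K4me3 31.5% and 86.7%. At gained distal JUN peaks without LSD1 it covered 0 of 107 and 2.81%, whose intervals overlap. Of the 24 members with RARA, 11 had TAF1 under DMSO (45.8%, 25.6 to 67.2) and 13 under E2 (54.2%, 32.8 to 74.4), which cannot be told apart. SIN3A, a corepressor scaffold, overlapped 191 members in stripped media (22.6%) and 133 in full media (15.7%), against 54.2% and 46.3% of all JUN E2 peaks and 3.03% and 4.76% of gained distal JUN peaks without LSD1. It was present in stripped media at 10.7% of members with the heptamer (6.76 to 15.9) and 26.2% of those without (22.8 to 29.7). MAX overlapped 27 members under DMSO (3.19%) and 24 under E2 (2.84%), against 12.8% and 8.92% of all JUN E2 peaks. At gained distal JUN peaks without LSD1 it overlapped 0.362% and 0.640%. H3K27me3 overlapped 35 members (4.14%) and 32 (3.78%), against 10.6% and 24.7% of all JUN E2 peaks and 0.417% and 0.250% of gained distal JUN peaks without LSD1. For both, the members were thus below the former set and above the latter. MYC and H3K36me3 overlapped no member, and of all 18310 JUN E2 peaks MYC overlapped 7 and 2 and H3K36me3 0.

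In T-47D, LSD1 peaks overlapped 0 members in the library labelled DMSO and 8 (0.946%) in that labelled E2, against 0.0273% and 0.453% of all Ishikawa JUN E2 peaks. T-47D JUN was present at 217 (25.7%, 95% CI 22.7 to 28.7) and 153 (18.1%, 15.5 to 20.8). JUN peaks of both T-47D libraries covered 129 members, DMSO alone 88 and E2 alone 24. The T-47D JUN shares, DMSO first, were 20.1% and 13.8% at gained distal JUN peaks without LSD1, 21.3% and 12.7% at sites present under both treatments, 73.1% and 73.2% at gained sites with H3K4me3 and 49.8% and 46.2% over all JUN E2 peaks, so the lower E2 share was common to the distal sets. Of the 9 members with an exact element, 5 had a T-47D JUN peak in the library labelled DMSO and 1 in that labelled E2. Over the whole T-47D lists the element with up to 1 mismatch was present at 1.37% of DMSO summits (1.24 to 1.51) and 0.900% of E2 summits (0.787 to 1.03), so the T-47D library labelled DMSO holds it more often. The same held for the heptamer, at 4.04% (3.82 to 4.28) and 2.84% (2.64 to 3.06), so the excess was not particular to the element. T-47D H3K4me1 overlapped 26 members under DMSO (3.07%) and 5 under E2 (0.591%), close to the 2.58% and 0.792% of all JUN E2 peaks. RNA polymerase II has 2 libraries per treatment in T-47D. It overlapped 205 and 48 members under DMSO (24.2% and 5.67%) and 231 and 90 under E2 (27.3% and 10.6%), ranges that overlap. Over all JUN E2 peaks the shares were higher, 53.7% and 37.1% under DMSO and 54.3% and 41.6% under E2. At gained distal JUN peaks without LSD1 they were 26.1% and 12.1% under DMSO and 30.4% and 14.1% under E2.

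By place, 429 members were intronic (50.7%), 284 intergenic (33.6%), 65 within 250 bp of an annotated start site (7.68%), 28 in non-coding exons, 20 in coding exons and 20 in untranslated exons. The median distance from the JUN summit to a protein-coding start site was 21652 bp, and 570 members (67.4%) were beyond 10 kb. At sites present under both treatments the median was 34368 bp and over all JUN E2 peaks 5216 bp. Chromosome 1 held the most members, 80, and chromosome X the fewest, 9. Members made up 7.83% of JUN E2 peaks on chromosome 21 and 2.16% on chromosome 12. With gaps of at most 20 kb, 156 members (18.4%) formed 70 groups, 10 of them with 3 or more.

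The members were nearest to 687 protein-coding genes, 106 of which were nearest to 2 or more. ZMIZ1, a PIAS-like transcriptional coregulator gene, was nearest to 11, of which 10 had an H3K4me1 DMSO peak, 2 the heptamer and 1 the element. They lay from 21728 to 314462 bp from its start sites, with JUN fold enrichments up to 17.4 and LSD1 up to 20.1. EDN2, the endothelin 2 gene, was nearest to 6, all with H3K4me1 under DMSO and none with either motif, and 4 of these lay within 5.84 kb at chr1:41964510-41970352. CXXC5, a zinc finger gene, was also nearest to 6, with JUN fold enrichments from 8.46 to 36.2 over 46.1 kb at chr5:139067763-139113824. GSE1, whose protein is found with LSD1 corepressor complexes, was nearest to 5, with JUN fold enrichments up to 19.0, 2 with the heptamer and 1 with the element and RARA. SORCS2, a sortilin family receptor gene, was nearest to 5, of which 3 held the heptamer. SMAD7, the inhibitory SMAD gene, was nearest to 4, all with H3K4me1 under DMSO, and the strongest, at chr18:46516957-46517678, had 19.4 and 21.5 and held the element. SLC6A6 (the taurine transporter), HS6ST1 (a heparan sulfate sulfotransferase), SPRY4 (a Sprouty inhibitor of receptor tyrosine kinase signalling) and XXYLT1 (a xylosyltransferase) were nearest to 4 each. Distal JUN E2 peaks counted for these genes were 27 for ZMIZ1, 7 for EDN2, 18 for CXXC5, 6 for GSE1 and 7 for SORCS2. They were 12 for SMAD7, 9 for SLC6A6, 26 for HS6ST1, 7 for SPRY4 and 11 for XXYLT1. Of all distal JUN E2 peaks 13.3% were members, so the order by count is not an order by share. Nearness is a matter of position alone, and no expression was measured in these lists.

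Of 19748 protein-coding genes, 9.7% had a member within 100 kb of a start site. Listed genes did so more often in each list, on small numbers. Of 25 estrogen-induced genes 5 did (20%), of 18 AP-1 and immediate early genes 4 (22.2%), of 17 LSD1 corepressor genes 3 (17.6%), of 18 retinoid and nuclear receptor genes 3 (16.7%), of 16 endometrial transcription factor genes 3 (18.8%) and of 18 epithelial and growth factor genes 5 (27.8%). Neither the number of start sites nor the density of peaks around the listed genes was matched, and nothing is read from these shares.

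Among estrogen-induced genes, GREB1 had a member 61 bp from a start site, at chr2:11679654-11680121, with JUN and LSD1 fold enrichments of 6.09 and 7.66. That member had neither the heptamer nor the element and no H3K4me1 under DMSO. IGFBP4, which binds insulin-like growth factors, had 3 members within 100 kb, the strongest at 14.5 and 11.3. FHL2 had 2, 1 of them with the exact element described above. The member near EGR3, an immediate early zinc finger gene, lay in an intron of PEBP4 with 15.6 and 9.21 and held the element. The member near TGFA, an EGFR ligand gene, had 9.53 and 16.2. JUND, an AP-1 subunit gene, had 2 members, the stronger at 22.3 and 14.04 in an intron of GDF15. IER3, an early response gene, had a member 7243 bp away with the element, at 8.79 and 8.93, and BATF and MAFK, both bZIP genes, had 1 and 2 members with JUN fold enrichments from 7.15 to 10.7.

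Some corepressor and receptor genes had members in their own introns. CTBP2, a corepressor gene, had 1 intronic member, at 9.01 and 9.87, with the heptamer. GSE1 had 3 within 100 kb. RXRA, the partner of RARA, had 3 within 100 kb, 2 with the heptamer, the strongest in its intron at 14.3 and 15.6 at chr9:137305761-137306189. NR2F1, an orphan nuclear receptor gene, had 1 in an intron of FAM172A at 19.8 and 14.5, and DHRS3, a retinal reductase gene, 1 at 11.5 and 10.3. Of the endometrial factors, PAX8 had a member in its own coding exon at 7.30 and 6.78, and MSX1 and GATA2 had 1 each with JUN values of 16.3 and 4.90. EGFR had an intronic member at 10.1 and 13.3, LIF 1 at 8.32 and 9.54, CLDN4 1 at 14.4 and 11.2, and KRT8 and KRT18 shared 1 at 11.1 and 7.49.

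Judged by the background of their peaks, the JUN DMSO library was shallower than the JUN E2 library, whereas the LSD1 libraries were alike. Of all JUN E2 peaks 81.6% were absent from the JUN DMSO list, and of LSD1 E2 peaks 64.6% from the LSD1 DMSO list, with 3763 and 8613 peaks in the DMSO lists. The deposited fold enrichment and p-value of a peak together give its pileup and background, and the genome background was 0.537 under DMSO and 1.09 under E2 for JUN, a ratio of 2.02, while that of LSD1 was 0.769 and 0.767. These backgrounds were taken as the measure of depth, since total reads are not given, and they may not reflect reads alone. When the JUN E2 pileups were scaled down to the DMSO background, 671 of 846 members (79.3%) would still have passed the smallest −log10 p-value of the lists, which is 10, and 217 of the 218 sites present under both treatments whose pileup could be solved. Those 671 held the heptamer in 25.9% and the element in 7.45%. The scaling covers JUN alone and applies the same ratio to all its peaks. With both E2 lists shortened to the length of the DMSO lists, the members numbered 73. Of distal JUN peaks with LSD1, the share absent from the JUN DMSO list fell from 97.9% at −log10 p-values of 10 to 20 to 26.3% above 100. The part of depth in the absences under DMSO was not tested.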

How the data were processed

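The authors aligned the ChIP-seq reads to hg19 (GRCh37) and called peaks per library, with Bowtie 1.1.2 and MACS2 2.1.0.20140616 in the submitters' processing notes. Of 49 samples, 45 have a peak list, and the 4 inputs were not analysed here. For each peak the authors deposited a fold enrichment at the summit (a ratio), a −log10 p-value, a −log10 q-value and an integer score, which was not used further. Total reads per library are not given in the lists.

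The members, lists and tests were chosen with earlier results of these data known. Overlap meant at least 1 bp. Motifs were searched on both strands in windows of 201 bp, and start sites came from the GENCODE annotation on GRCh37. The named regions were the 5 members with the highest score (the lower of the JUN and LSD1 fold enrichments), the 5 with the highest RARA fold enrichment, the 5 highest scores with an exact element and the 3 highest with both motifs. The named genes were the 10 nearest to the most members, ties by summed score, and each listed gene with a member within 100 kb. Background pileups were solved from fold enrichment and p-value, which solved all 846 members. The functions were tested on simulated data. Python 3.11.15, numpy 2.4.6, pandas 2.3.3, scipy 1.17.1 and pysam 0.24.0 were used. Alternatives changed the overlap, the strength, the length of the E2 lists, the definition of distal, the motif window and the DMSO distance. Some items that the naming rule picks are not reported here.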

Additional observations from a re-analysis of the deposited data

Results flagged for a closer look

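At the 846 members, TAF1 and MAX peaks became fewer with E2 in Ishikawa and more in T-47D. These differences were not tested, since each group is 1 library. For TAF1 the difference was -93 in Ishikawa (179 to 86) and 2 in T-47D (1 to 3). For MAX it was -3 in Ishikawa (27 to 24) and 2 in T-47D (0 to 2). The same opposite directions held over all JUN E2 peaks, where TAF1 went from 58.3% to 51.9% in Ishikawa and from 16.1% to 19.2% in T-47D, and MAX from 12.8% to 8.92% and from 0.524% to 5.17%, so they are not particular to the members. For JUN the Ishikawa difference of 846 is the rule itself and carries no information. T-47D JUN peaks overlapped 217 members in the library labelled DMSO and 153 in that labelled E2, a difference of -64. The T-47D library labelled DMSO held the element at more of its summits, 1.37% against 0.900%, and the exact element at 61 of 28702 against 21 of 24883. It also held the heptamer at more of them, 4.04% against 2.84%, so the excess was not particular to the element. Whether these T-47D labels are exchanged was not tested, and an exchange would turn the sign of the difference of -64.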

How the results depend on the processing

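No paired analysis was possible because each Ishikawa group is 1 library. The number of members was 351 with a fold enrichment of at least 10 in both lists, 73 with the E2 lists shortened to the length of the DMSO lists and 1756 with no start site within 1 kb in place of no H3K4me3. With the fold minimum the element share was 10.5% and the RARA share 4.27%, and with shortened lists 24.7% and 8.22%. The heptamer share was 27.6% with the fold minimum, 16.8% with the start site rule, 16.1% within 50 bp and 29.7% within 250 bp. The element share was 5.08% within 50 bp and 1.06% for the exact element. H3K4me1 was at 39.7% with shortened lists, 64.0% with the start site rule, 31.3% with the JUN summit inside the peak and 64.5% within 1 kb. The median distance to a start site was 30320 bp with shortened lists, 19264 bp with the start site rule and 6215.5 bp to the starts of all genes. The cause of these changes was not tested. The other alternatives, among them the JUN depth scaling chosen after seeing the data, kept 671 to 800 members.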
